A study of Homo sapiens with 6 samples.

Results

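Mitosis needs a set of genes that most cycling cells transcribe late in the cycle, in G2 and M phase. They encode cyclin B with its kinase CDK1, the kinases that build the spindle, the kinetochores that tie chromosomes to it, the checkpoint that delays anaphase, and the motors and scaffolds of cytokinesis. Many of their promoters hold a short element, the cell cycle genes homology region (CHR), through which MuvB complexes with B-MYB (MYBL2) and FOXM1 are known to act late in the cycle. A set of 60 such genes was followed here, chosen by name and matched by symbol. Each of the 60 symbols had a single row among the 31966 genes of the count table, and all 60 passed the filter on low counts.

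The cells were Kasumi-1, an established line of acute myeloid leukaemia in which RUNX1 is fused to RUNX1T1. The control group (n = 3) carried a doxycycline-inducible hairpin against luciferase (shLUC), and the FBL knockdown group (n = 3) an inducible hairpin against FBL (shFBL). FBL encodes fibrillarin, which methylates ribosomal RNA as part of box C/D particles. Both groups had received 100 ng/ml doxycycline for 72 hours. No second hairpin against FBL was among the samples, so loss of FBL and other effects of this hairpin cannot be told apart. The labels do not say whether replicates were separate cultures, so p-values reflect only how far these libraries vary, and that variation may be technical.

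Total counts per library ranged from 85556322 to 103148412. FBL stood at 580.4, 549.7 and 543.9 CPM in controls 1, 2 and 3 and at 54.0, 32.4 and 44.9 CPM in knockdown libraries 1, 2 and 3, so the labels match the target. CPM here is the count relative to the library total after TMM scaling (a trimmed mean that evens out library composition). Of 8 myeloid markers 7 exceeded 1 CPM, with MPO at 6334 CPM and KIT at 80.8 CPM, while the leukocyte antigen PTPRC stood at 0.856 CPM. Markers of epithelial cells, fibroblasts and red cells summed to at most 0.423 CPM in any library, those of T cells to 1.23 to 1.40 CPM in controls and 2.00 to 2.32 CPM after knockdown, and those of B cells to 1.22 to 1.45 and 1.46 to 1.78 CPM. The controls differed in GC lean, with controls 1 and 2 at opposite ends. In control 2 GC-rich transcripts were 0.36 higher on the log2 scale than GC-poor ones, relative to the mean of all libraries. The same difference was -0.29 in control 1 and -0.07 in control 3. Knockdown library 1 leaned the way of control 2 (0.24), whereas knockdown libraries 2 and 3 were at -0.17 and -0.08.

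The promoters of these genes are shown first, because the CHR is common in the set. Many such promoters are known to hold one, so its share is not independent of the choice of genes. RefSeq promoter windows (GRCh38.p14, 250 bases before to 50 after an annotated start) were at hand for 50 of the 60 genes. The letters TTTGAA, the core of the CHR, occurred on either strand in 36 of these 50 genes (72.0%), against 13.1% of the 11040 tested genes with a window. The CCAAT box, the site of NF-Y, was also in 36 of 50 (72.0%, against 42.0%). Both occurred together in 27 of the 50 (54.0%, against 5.33%). Letters of an E2F site (TTTCCCGC or TTTGGCGC, either strand) were in 3 of 50 (6.0%, against 4.40%). A list of 113 further mitotic genes, 101 of them with a window, held the CHR letters in 39.6%, the CCAAT box in 58.4%, both in 21.8% and the E2F letters in 17.8%. Of 24 genes of the MCM helicase and origin licensing, 21 had a window, and 12 of those held the E2F letters while 1 held the CHR letters. Among all 35116 windows of the table the CHR letters were in 15.2%, the CCAAT box in 34.6%, the pair in 5.90% and the E2F letters in 2.27%. A match of letters is a description and not a binding site, and a CCAAT box can share a base with an adjoining CHR, as it does in CDCA8.

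Below are the 100 bases just before the start of 5 genes that were lower after knockdown and 3 that did not pass the test, 5′ to 3′ on the gene's strand. Capitals mark the CHR letters and the CCAAT letters on either strand (TTCAAA and ATTGG are their reverse complements). The genes were picked to show that the same pair of motifs stands in both kinds of promoter.
PRC1 (chr15:90994536-90994635, minus strand): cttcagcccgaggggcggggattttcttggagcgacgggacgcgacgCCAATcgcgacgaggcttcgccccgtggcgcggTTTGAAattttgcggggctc
KIF4A (chrX:70290004-70290103, plus strand): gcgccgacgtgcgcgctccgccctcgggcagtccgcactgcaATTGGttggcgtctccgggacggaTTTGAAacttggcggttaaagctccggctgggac
INCENP (chr11:62123911-62124010, plus strand): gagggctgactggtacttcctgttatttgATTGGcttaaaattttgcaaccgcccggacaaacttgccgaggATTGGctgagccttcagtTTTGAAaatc
PLK1 (chr16:23678789-23678888, plus strand): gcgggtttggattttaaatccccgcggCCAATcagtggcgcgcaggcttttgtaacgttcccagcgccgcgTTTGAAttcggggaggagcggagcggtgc
CDCA8 (chr1:37692416-37692515, plus strand): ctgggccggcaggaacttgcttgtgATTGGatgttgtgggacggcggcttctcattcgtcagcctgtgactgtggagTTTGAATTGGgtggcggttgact
CCNB2 (chr15:59105046-59105145, plus strand): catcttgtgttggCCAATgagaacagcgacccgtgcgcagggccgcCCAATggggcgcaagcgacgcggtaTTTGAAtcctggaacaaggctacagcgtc
HMMR (chr5:163460532-163460631, plus strand): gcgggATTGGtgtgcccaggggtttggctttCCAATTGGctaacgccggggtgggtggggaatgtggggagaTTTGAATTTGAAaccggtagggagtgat
KIF18A (chr11:28108157-28108256, minus strand): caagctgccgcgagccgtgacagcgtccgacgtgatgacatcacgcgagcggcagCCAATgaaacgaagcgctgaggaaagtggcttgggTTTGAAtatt

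The CHR begins 20 bases before the start in PRC1, 34 in KIF4A, 10 in INCENP, 29 in PLK1, 23 in CDCA8, 29 in CCNB2 and 10 in KIF18A, and HMMR has one at 28 and one at 22 bases before the start. Over all 53 CHR matches in the windows of 36 genes, some of them after the start, the median position was 28 bases before the start (interquartile range 73 to 3 before it). The 83 matches of the CCAAT box lay farther out, at a median of 79 bases before it. Matches were counted in each window, so a site shared by overlapping windows of a gene counts again in these totals and medians. Among the genes with a window, 14 of 36 with the CHR letters were called lower in the expression comparison that follows, with a median log2 fold change of -0.31. Of 14 without them, 7 were called lower, with a median of -0.32. The difference between these classes was not tested. Of all tested genes, 17.0% were called lower in that comparison.

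The comparison of knockdown with control asked which of the mitotic transcripts differed once FBL was depleted. After knockdown 24 of the 60 genes (40.0%) were lower and 2 were higher, where "called" here and below means an adjusted p of at most 0.05 in edgeR's quasi-likelihood test with Benjamini-Hochberg adjustment over all 18486 tested genes. Among all tested genes 17.0% were called lower and 15.8% higher, and among those at a mean of 10 CPM or more 27.7% and 16.2%. At that level 32 mitotic genes were found, 14 of them lower (43.8%) and 2 higher. Over all genes 3140 were lower and 2920 higher, and upper-quartile scaling turned this split to 2528 and 3597, with 22 mitotic genes lower and 3 higher. The estimate was negative for 48 of 60 genes, and the median log2 fold change was -0.28, against -0.01 for all tested genes. Changes were moderate: TPX2 alone was both called and changed 2-fold or more. The groups did not overlap for 28 genes with all knockdown libraries below all controls, and for 3 with all above, where 23.1% and 22.1% of all tested genes behaved so. In bulk RNA fewer cells in G2 or M phase and less of a transcript per cell cannot be told apart.

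Leaving out control 2 raised the count of lower genes from 24 to 34, which kept all 24 and added BUB1, CENPF, ECT2, HMMR, KIF11, MAD2L1, NCAPD2, NCAPG, PTTG1 and SMC3. The count was 17 without knockdown library 2, 18 without knockdown library 3 and between 19 and 22 without control 1, control 3 or knockdown library 1. Over all genes tested in each fit the lower count moved too, from 3140 to 3644 without control 2. It was 2062 without knockdown library 2 and 1835 without knockdown library 3. Without control 1, control 3 or knockdown library 1 it was between 2285 and 3058. CDC25B and FOXM1 were higher in each of these fits. The call of NDC80 was lost without any single library other than control 2. ESPL1 lost its call without control 1 or 3 or knockdown library 2 or 3, AURKB and MKI67 without control 3 or knockdown library 2 or 3, KIF23 without control 3 or knockdown library 1 or 2, and BUB1B without knockdown library 1 or 3. NUSAP1 and CKAP5 lost theirs without knockdown library 2, and CDCA8 without knockdown library 3.

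**Figure D1:**
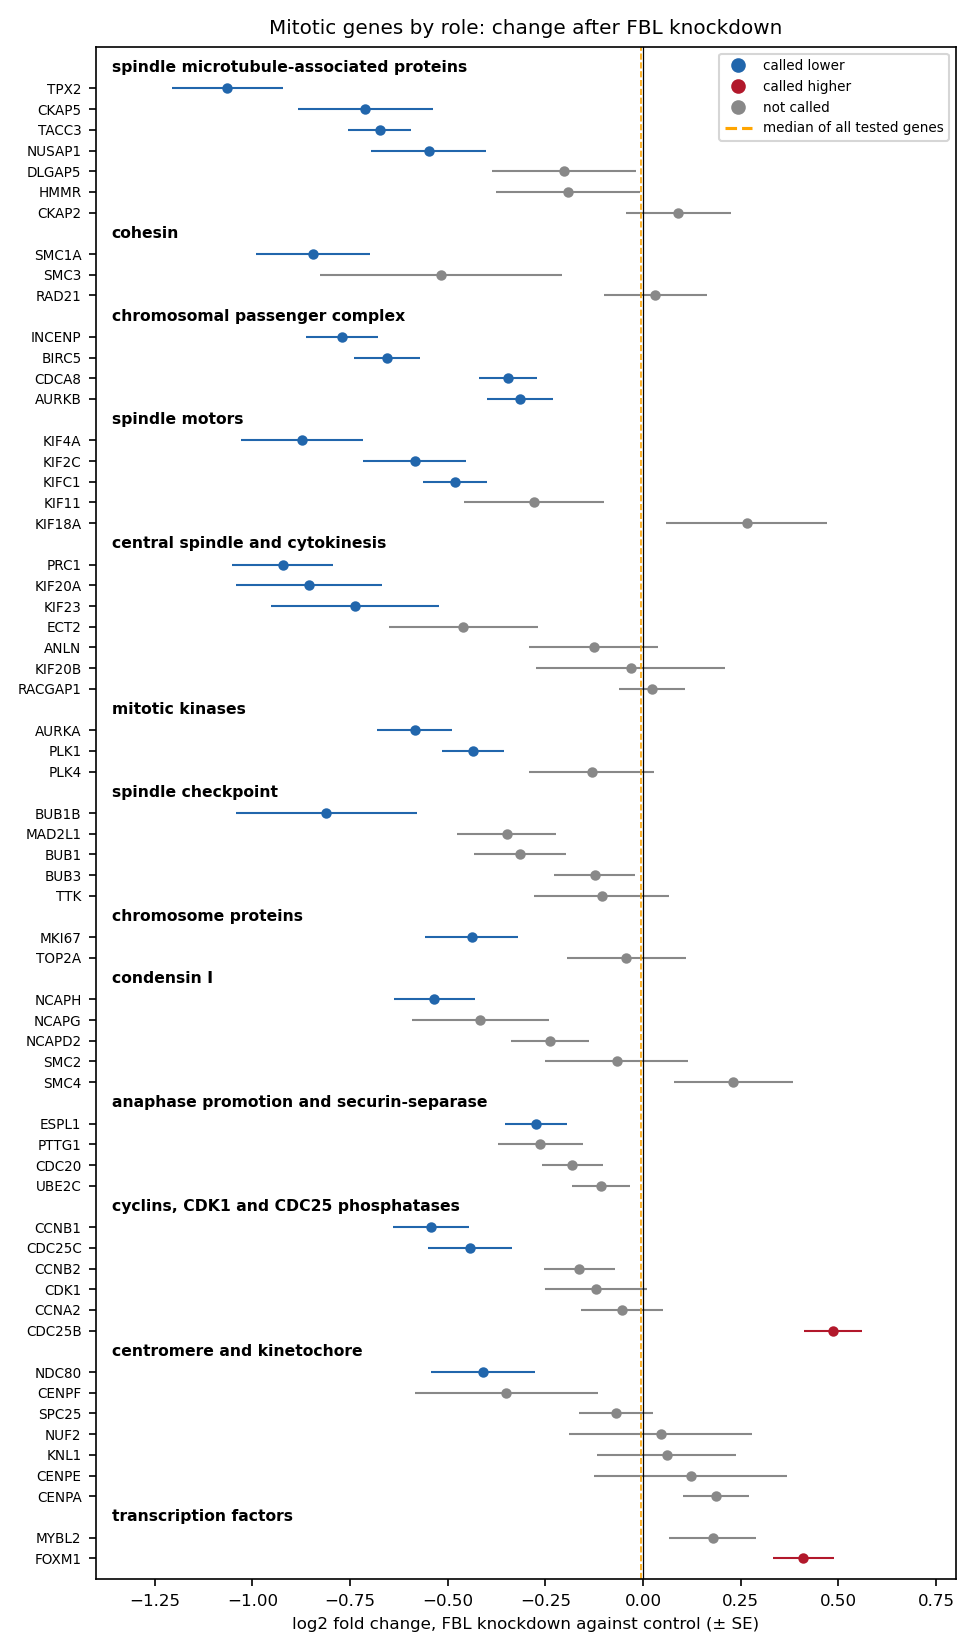
Log2 fold change of each of the 60 genes (point) with its SE (bar), grouped by role and ordered by the median of the role; blue is called lower, red called higher and grey not called, and the dashed line is the median of all tested genes. All 4 genes of the chromosomal passenger complex lie left of 0 and are blue, while FOXM1 and CDC25B are the 2 red points.

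At the core of mitotic entry, cyclin B1 fell and its kinase did not pass the test. CCNB1 (ENSG00000134057, chr5:69167010-69178245, plus strand; gene spans here and below, introns included, are on GRCh38) encodes cyclin B1, the activating partner of CDK1. It was at 105.0, 86.5 and 96.9 CPM in the controls and 59.9, 68.9 and 69.3 CPM after knockdown. The groups did not overlap, and the log2 fold change was -0.54 ± 0.10 (SE, n = 3 against 3; edgeR adjusted p = 0.00186), 1.46-fold lower. CDK1 itself stood at 77.1, 56.5 and 73.9 CPM in controls and 54.3, 69.2 and 67.4 CPM after knockdown. Its groups overlapped (-0.12 ± 0.13, edgeR adjusted p = 0.515). The other cyclins of the set did not pass either, with CCNB2 at -0.16 ± 0.09 and CCNA2 at -0.05 ± 0.11.

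The CDC25 phosphatases, which remove inhibitory phosphates from CDK1, went in opposite directions. CDC25B (ENSG00000101224, chr20:3786772-3806121, plus strand) was at 111.8, 113.6 and 116.0 CPM in controls and 164.8, 158.6 and 155.1 CPM after knockdown, 1.40-fold higher with a gap between the groups (0.49 ± 0.07, edgeR adjusted p = 0.000745). CDC25C, which acts at the onset of mitosis, fell from a mean of 8.40 to 6.18 CPM (-0.44 ± 0.11, edgeR adjusted p = 0.00919). The exons of CDC25C overlap those of FAM53C on the other strand over 293 bases, and FAM53C is the stronger of the pair at 190.2 CPM. Whether the authors' counting used strand is not given in the sources used here, so reads of such pairs cannot be assigned with certainty.

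The mitotic kinases PLK1 and AURKA were both lower. PLK1 (ENSG00000166851, chr16:23677656-23690367, plus strand) drives centrosome maturation and many steps up to cytokinesis. It stood at 198.3, 215.0 and 205.3 CPM in controls and 158.8, 144.0 and 154.9 CPM after knockdown, groups that did not overlap (-0.43 ± 0.08, edgeR adjusted p = 0.00205). An unnamed antisense gene covers 11.6% of its exon bases and stood at 23.0 CPM, with a log2 fold change of -0.40. AURKA (ENSG00000087586, chr20:56369389-56392337, minus strand), the kinase of the spindle poles, was at 35.8, 29.9 and 29.5 CPM in controls and within 21.0 to 21.3 CPM in all 3 knockdown libraries (-0.58 ± 0.10, edgeR adjusted p = 0.0011). PLK4, which starts centriole duplication, was at -0.13 ± 0.16 and was not called.

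The 4 genes of the chromosomal passenger complex, which corrects faulty chromosome attachments and then guides cytokinesis, all fell. Each of the 4 was called lower, where 17.0% of all tested genes were. INCENP (ENSG00000149503, chr11:62123973-62153163, plus strand), its scaffold, went from 27.5, 24.8 and 24.7 CPM to 16.1, 14.9 and 14.2 CPM (-0.77 ± 0.09, edgeR adjusted p = 0.000172). BIRC5 (survivin; ENSG00000089685, chr17:78214186-78225636, plus strand) was at 249.7, 216.4 and 221.7 CPM in controls and 142.2, 142.5 and 151.9 CPM after knockdown (-0.66 ± 0.08, edgeR adjusted p = 0.000273). In both genes the highest knockdown library lay well under the lowest control. CDCA8 (borealin) changed by -0.35 ± 0.07 from a control mean of 119.5 CPM. AURKB, the kinase of the complex, was at 37.6, 39.1 and 40.1 CPM in controls and 32.1, 28.8 and 32.9 CPM after knockdown (-0.32 ± 0.09, edgeR adjusted p = 0.0162). The call of AURKB was lost in 4 of 19 alternative settings and that of CDCA8 in 1.

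Proteins that nucleate or bundle spindle microtubules held the largest single change. TPX2 (ENSG00000088325, chr20:31739271-31801805, plus strand) recruits and activates AURKA on the spindle. It stood at 36.7, 23.7 and 28.0 CPM in controls and 13.4, 14.3 and 14.6 CPM after knockdown, 2.09-fold lower (-1.06 ± 0.14, edgeR adjusted p = 0.000328). The controls were spread more widely than the knockdown libraries, yet the lowest control was above the highest knockdown library. CKAP5, a microtubule polymerase, was at 9.69, 6.21 and 8.16 CPM in controls and 4.26, 4.53 and 5.91 CPM after knockdown (-0.71 ± 0.17, edgeR adjusted p = 0.00957). Its partner TACC3 fell from a mean of 150.1 to 94.1 CPM (-0.67 ± 0.08), and NUSAP1 from 3.88 to 2.65 CPM (-0.55 ± 0.15). DLGAP5 (-0.20 ± 0.18), HMMR (-0.19 ± 0.18) and CKAP2 (0.09 ± 0.13) were not called.

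Of 5 spindle motors 3 were lower. KIF4A (ENSG00000090889, chrX:70290090-70420832, plus strand), a chromokinesin that limits the length of the central spindle, was at 9.55, 5.98 and 7.45 CPM in controls and 4.13, 4.07 and 4.33 CPM after knockdown (-0.87 ± 0.16, edgeR adjusted p = 0.00187). KIF2C, which depolymerizes microtubules at centromeres, was at 37.6, 25.9 and 29.1 CPM in controls and 19.6, 19.7 and 22.6 CPM after knockdown (-0.58 ± 0.13, edgeR adjusted p = 0.00644). Neither gene had overlapping groups. The exons of KIF4A overlap 77 bases of PDZD11 on the other strand, which stood at 62.0 CPM and had a log2 fold change of -0.34. The minus-end motor KIFC1 changed by -0.48 ± 0.08 and was called lower as well. KIF11, the motor that separates spindle poles, was at -0.28 ± 0.18, and KIF18A, at only 0.664 CPM in controls, was at 0.27 ± 0.21.

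In the central spindle and cytokinesis group 3 of 7 fell (42.9%, against 17.0% of all tested genes). PRC1 (ENSG00000198901, chr15:90966038-90995629, minus strand) bundles antiparallel microtubules at the midzone. It was at 14.1, 10.3 and 11.7 CPM in controls and 6.73, 6.58 and 5.73 CPM after knockdown (-0.92 ± 0.13, edgeR adjusted p = 0.000411), and its exons overlap 406 bases of the antisense gene PRC1-AS1, which stood at 1.96 CPM. KIF20A, a midzone motor, was at 14.3, 8.27 and 8.60 CPM in controls and 5.60, 5.58 and 6.03 CPM after knockdown (-0.86 ± 0.19, edgeR adjusted p = 0.00566). All knockdown libraries of PRC1 and KIF20A lay under all controls. The exons of KIF20A overlap 68 bases of CDC23 and 132 bases of BRD8 on the other strand. CDC23 stood at 11.8 CPM with a log2 fold change of -0.87, and BRD8 at 12.3 CPM with one of -0.24. KIF23, the motor subunit of centralspindlin, fell from 2.24 to 1.34 CPM (-0.74 ± 0.22, edgeR adjusted p = 0.023) with overlapping groups, and its call was lost in 4 of 18 settings. RACGAP1, its partner in that complex, was at 0.02 ± 0.08, and ECT2 (-0.46 ± 0.19), ANLN (-0.13 ± 0.16) and KIF20B (-0.03 ± 0.24) were not called.

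**Figure D2:**
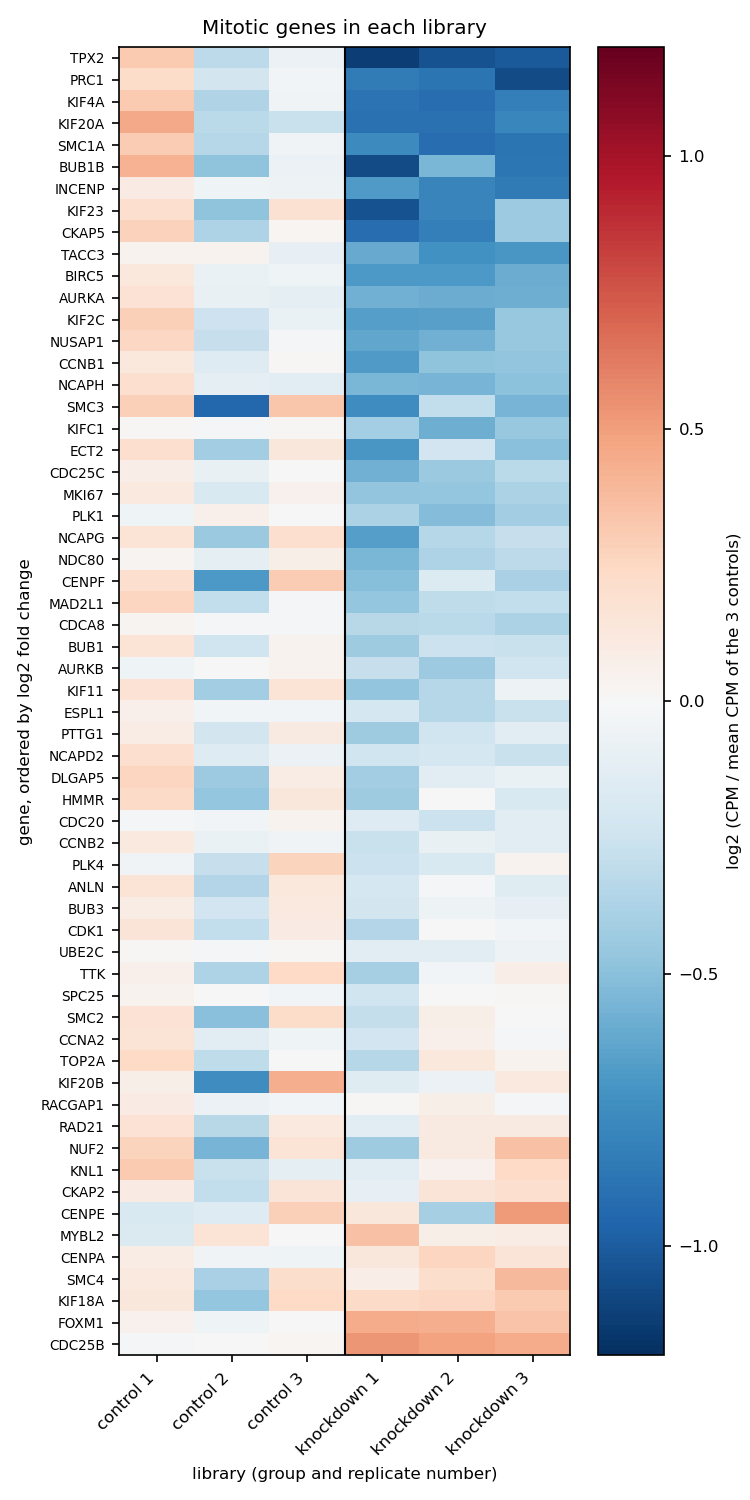
Log2 of the CPM of each gene over its mean in the 3 controls, by library, with genes ordered by log2 fold change and a line between the groups. Control 2 is below the other controls for most genes, and the top of the plot, from TPX2 to INCENP, is low in all 3 knockdown libraries.

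Kinetochore and checkpoint genes mostly did not pass the test. Of 7 centromere and kinetochore genes 1 was called (14.3%, near the 17.0% of all tested genes called lower). It was NDC80, a microtubule-binding subunit of the outer kinetochore, at 2.42, 2.19 and 2.49 CPM in controls and 1.62, 1.83 and 1.91 CPM after knockdown. Its groups did not overlap, but the call (-0.41 ± 0.13, edgeR adjusted p = 0.0368) was lost in 8 of 18 settings. Its complex partners NUF2 (0.05 ± 0.23) and SPC25 (-0.07 ± 0.09) and the scaffold KNL1 (0.06 ± 0.18) were near 0. So was the motor CENPE (0.12 ± 0.25), while CENPF was at -0.35 ± 0.23. CENPA, the histone H3 variant of centromeres, was at 0.19 ± 0.08, above every control in all 3 knockdown libraries but not called. It was called higher in 3 of 19 other settings, namely upper-quartile scaling, the stricter filter and the GC correction. Its exons share 138 bases with SLC35F6 on the same strand, which stood at 81.0 CPM and had a log2 fold change of 0.56.

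Of 5 spindle checkpoint genes 1 was called. BUB1B, which encodes the inhibitor BubR1, was at 2.71, 1.45 and 1.94 CPM in controls and 0.965, 1.39 and 1.12 CPM after knockdown (-0.81 ± 0.23, edgeR adjusted p = 0.0205). The lowest control, control 2, was just above the highest knockdown library, and the call was lost in 4 of 18 settings. MAD2L1 (-0.35 ± 0.13, edgeR adjusted p = 0.0562) and BUB1 (-0.32 ± 0.12, edgeR adjusted p = 0.0625) were close to the threshold, and BUB3 (-0.12 ± 0.10) and TTK (-0.11 ± 0.17) were not. MAD2L1 was called lower in 3 of 19 other settings and BUB1 in 2.

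Of 4 genes of anaphase onset 1 was called. ESPL1 (separase), the protease that opens cohesin rings, was at 65.6, 61.5 and 61.6 CPM in controls and 54.3, 49.5 and 52.3 CPM after knockdown (-0.27 ± 0.08, edgeR adjusted p = 0.0228). The groups were apart, yet the call was lost in 6 of 19 settings. Its inhibitor securin (PTTG1, -0.26 ± 0.11), the activator CDC20 (-0.18 ± 0.08) and the ubiquitin-conjugating enzyme UBE2C (-0.11 ± 0.07) of the anaphase-promoting complex were not called. CDC20 and MAD2L1 have pseudogene copies, CDC20P1 at 5.99 CPM and MAD2L1P1 at 3.27 CPM, that can share reads, so their values are uncertain.

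Among genes that shape chromosomes, 1 of 5 condensin I subunits was called. NCAPH was at 36.5, 29.4 and 28.96 CPM in controls and 21.5, 21.5 and 22.4 CPM after knockdown, below every control (-0.53 ± 0.10, edgeR adjusted p = 0.00276). NCAPG (-0.42 ± 0.18), NCAPD2 (-0.24 ± 0.10), SMC2 (-0.07 ± 0.18) and SMC4 (0.23 ± 0.15) were not called. Opposite-strand genes cover 33.1% of the exon bases of NCAPG (LCORL) and 18.5% of those of SMC4 (TRIM59), at levels near their own. In cohesin, which holds sister chromatids together, SMC1A (ENSG00000072501, chrX:53374149-53422728, minus strand) went from 20.9, 13.4 and 16.4 CPM to 9.97, 8.99 and 9.23 CPM (-0.85 ± 0.15, edgeR adjusted p = 0.00147), again without overlap. SMC3 (-0.52 ± 0.31, at 0.730 CPM in controls) and RAD21 (0.03 ± 0.13) were not called.

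The proliferation marker MKI67 was at 5.49, 4.45 and 5.27 CPM in controls and 3.64, 3.67 and 3.90 CPM after knockdown, with a gap between the groups (-0.44 ± 0.12, edgeR adjusted p = 0.0155; call lost in 4 of 18 settings). TOP2A, the topoisomerase that untangles sister chromatids, was at 16.5, 11.3 and 14.0 CPM in controls and 11.02, 15.2 and 14.4 CPM after knockdown. These groups overlapped, and the estimate was -0.04 ± 0.15 (edgeR adjusted p = 0.855), positive in 4 of 19 settings, upper-quartile scaling among them.

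Neither of the 2 transcription factors of the set was called lower. FOXM1 (ENSG00000111206, chr12:2857681-2877155, minus strand) was at 321.7, 299.8 and 309.1 CPM in controls and 423.4, 419.6 and 394.2 CPM after knockdown, 1.33-fold higher with no overlap (0.41 ± 0.08, edgeR adjusted p = 0.00245). Its exons overlap 781 bases of ITFG2 on the other strand, which stood at 109.8 CPM and had a log2 fold change of 0.43. MYBL2 was the most abundant member by length as well, at 481 ± 58.3 RPKM (reads scaled by gene length and library total) in controls and 543 ± 69.5 RPKM after knockdown (SD, n = 3 each). In CPM it was at 1181, 1494 and 1326 in controls and 1705, 1402 and 1419 after knockdown, groups that overlapped (0.18 ± 0.11, edgeR adjusted p = 0.25). It was called higher in 1 of 19 other settings, the GC correction (edgeR adjusted p = 0.0244). For comparison per length, CDC20 came next among members at 119 ± 3.08 RPKM in controls, the median member was at 2.69 RPKM, and 21 of the 60 were under 1 RPKM, down to CENPE at 0.0712 ± 0.0138 RPKM.

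**Figure D3:**
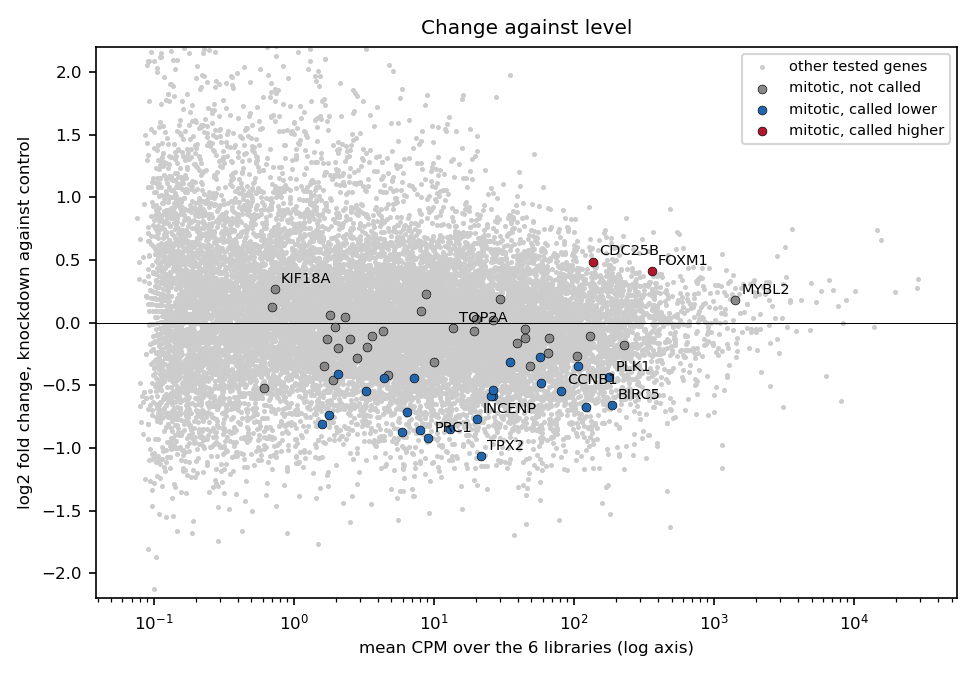
Log2 fold change against mean CPM over the 6 libraries (log axis) for all tested genes (grey dots) and the 60 mitotic genes (outlined). Genes called lower run from BUB1B, the least abundant of them, to BIRC5 at 187.4 CPM, and MYBL2 is the member farthest to the right; tested genes beyond 2.2 in either direction are not drawn.

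Over the members the change did not follow abundance: mean log2 CPM and log2 fold change had a Pearson correlation of 0.10 and a Spearman correlation of 0.06 across the 60 genes, which share libraries and so are not independent. GC content and log2 fold change had a Pearson correlation of -0.19 and a Spearman correlation of -0.34 across the same genes. Across the 60 genes the log2 ratio of control 2 to controls 1 and 3 had a Pearson correlation of 0.72 (Spearman 0.72) with the GC content of the longest transcript. For 56 of 60 genes control 2 was below the mean of the other controls. The 34 genes under 45% GC had a median ratio of -0.49 on the log2 scale, and the 26 at 45% or more one of -0.10.

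Of those 34 GC-poor genes 6 were called lower, and of the 26 others 18, where 12.1% of all tested genes under 45% GC and 19.4% of those at or above it were called lower. Median log2 fold changes were -0.13 and -0.44. Without control 2 the counts were 14 of 34 and 20 of 26, with medians of -0.27 and -0.49. A correction for GC content in each library gave 10 of 34 and 18 of 26, with medians of -0.12 and -0.39. Over all tested genes the lower count was 3644 without control 2 and 3931 after the GC correction, against 3140 in the main fit. Shares of all tested genes by GC class were not computed for these alternative fits. The part of GC content in the difference between the 2 classes was not tested. The split at 45% was chosen after the values were seen.

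**Figure D4:**
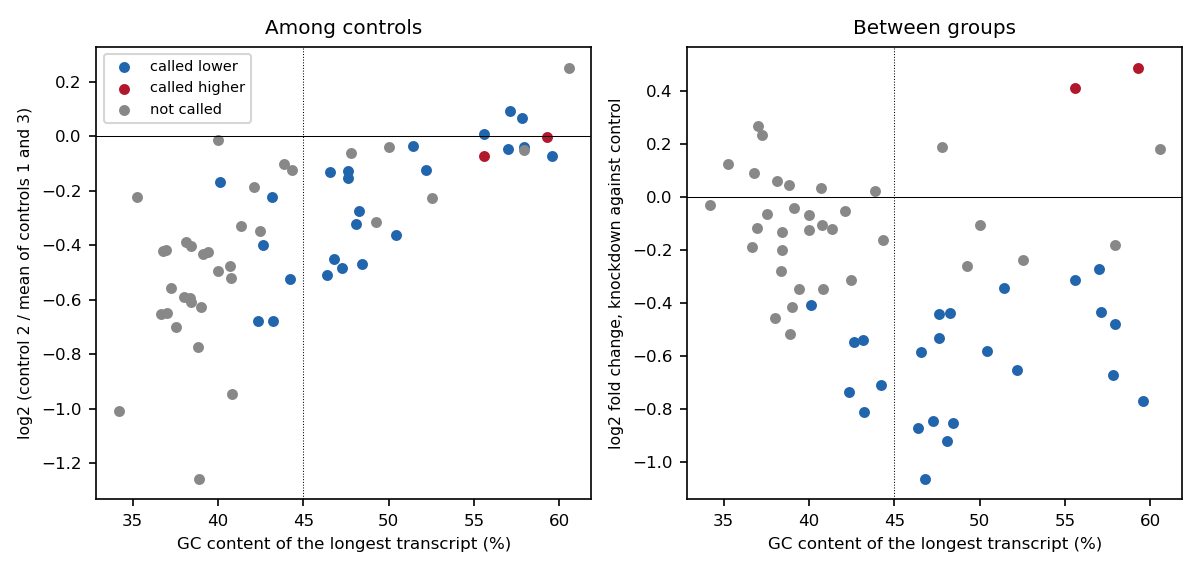
GC content of the longest transcript of each gene against the log2 ratio of control 2 to the mean of controls 1 and 3 (left) and against the log2 fold change of knockdown over control (right), with a dotted line at 45%. GC-poor genes are lowest in control 2, and 18 of the 24 blue points lie right of the line.

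By library, the median gene of the set lay 0.15, -0.246 and 0.01 from its control mean on the log2 scale in controls 1, 2 and 3, and at -0.41, -0.259 and -0.254 in knockdown libraries 1, 2 and 3. Control 2 was above the knockdown libraries in this summary, by less than 0.01 from the nearest of them. It was the lowest control for 49 of the 60 genes, and knockdown library 1 the lowest of its group for 40. Control 1 was the highest control for 38. Transcripts of the mitochondrial genome took 13.8% ± 1.40 of counts in controls and 16.8% ± 2.04 after knockdown (SD over 3 libraries each; p = 0.2 by a 2-sided exact permutation test, which cannot go under 0.1).

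For 6 pairs of genes that share a complex, a pathway or a role, ratios of the deposited RPKM values were taken within each library. Scaling between libraries drops out of such a ratio, but a GC lean does not where the partners differ in GC content. GC content was 46.8% and 46.6% in TPX2 and AURKA and 42.3% and 43.9% in KIF23 and RACGAP1. In CCNB1 and CDK1 it was 43.2% and 37.0%, and in CDC20 and MAD2L1 57.9% and 39.4%. In CDC25C and WEE1 it was 47.6% and 37.9%, and in TOP2A and MKI67 39.1% and 48.3%. A 2-sided exact permutation test of 3 against 3 cannot give a p under 0.1. The log2 ratio of TPX2 to AURKA was -0.26, -0.63 and -0.38 in controls and -0.96, -0.86 and -0.83 after knockdown, lower in all 3 knockdown libraries than in any control by a mean of -0.46 (exact permutation p = 0.1). CCNB1 to CDK1 was at 1.07, 1.23 and 1.01 in controls and 0.76, 0.61 and 0.66 after knockdown, a difference of -0.43 (exact permutation p = 0.1). So cyclin B1 transcripts were fewer per CDK1 transcript in each knockdown library.

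TOP2A to MKI67 went the other way, from a mean of 2.44 ± 0.12 to 2.83 ± 0.23 (SD, n = 3 each; exact permutation p = 0.1), also without overlap. KIF23 to RACGAP1 differed by -0.75 (exact permutation p = 0.2), CDC25C to the CDK1-inhibiting kinase WEE1 by -0.18 (exact permutation p = 0.2) and CDC20 to MAD2L1 by 0.15 (exact permutation p = 0.5), and the groups of these 3 ratios overlapped. Adjusted over the 6 ratios by Benjamini-Hochberg, the smallest value was 0.2, so 0 of the 6 passed a threshold of 0.05.

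**Figure D5:**
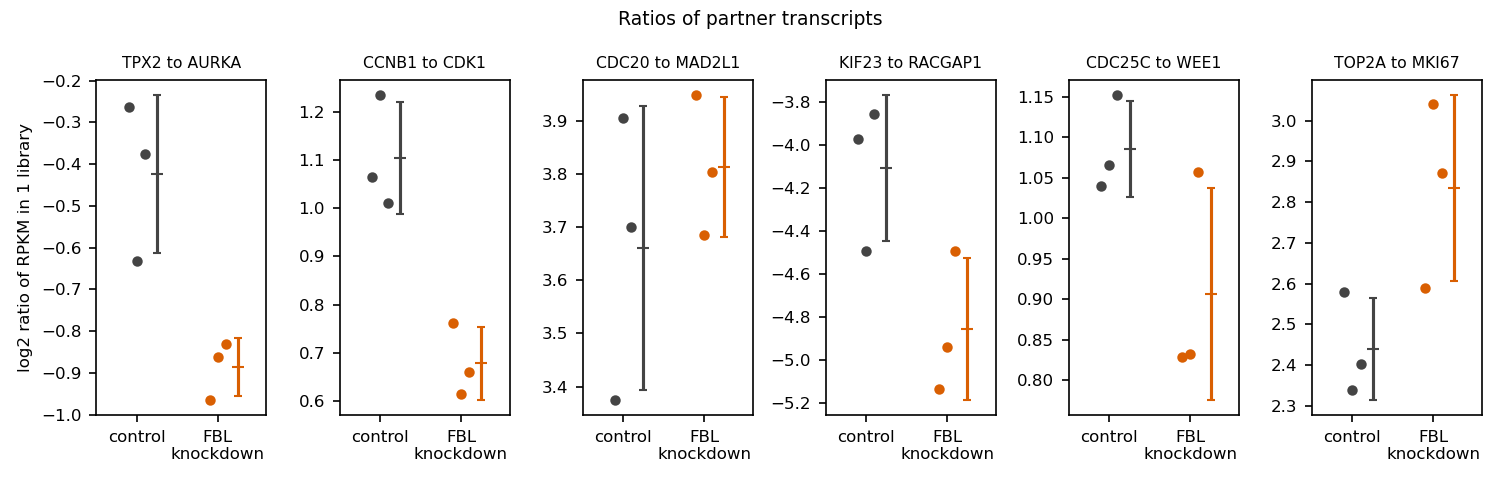
Log2 ratio of the RPKM values of 2 paired genes in each library (points), with the mean and SD of each group beside them; each panel has its own vertical scale. The groups are apart for TPX2 to AURKA, CCNB1 to CDK1 and TOP2A to MKI67.

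The wider machinery of mitosis was read from the same fit with the list of 113 further genes, all of which were tested. Of these 20 were lower and 9 higher, with a median log2 fold change of -0.10. The share called lower, 17.7%, is close to the 17.0% of all tested genes, and the share called higher was 8.0%, against 15.8%. CDC25A, the phosphatase of S-phase entry that also acts in G2, had the largest fall, from 75.1, 77.4 and 74.5 CPM to 43.0, 39.9 and 36.8 CPM (-0.92 ± 0.09, edgeR adjusted p = 4.81e-05). CDC23 (-0.87 ± 0.12) and ANAPC2 (-0.72 ± 0.13), subunits of the anaphase-promoting complex, and the checkpoint protein MAD1L1 (-0.86 ± 0.11) were lower too. Among 17 genes of the anaphase-promoting complex and its regulators 4 fell and 4 rose (23.5% each). The largest rise was in ANAPC13 (0.58 ± 0.11).

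ENSA, a PP2A inhibitor of mitotic entry, was at 168.3, 159.6 and 158.9 CPM in controls and 227.8, 240.1 and 217.4 CPM after knockdown, apart from the controls (0.49 ± 0.08, edgeR adjusted p = 0.000902). In the MuvB and DREAM group 3 of 9 were higher (33.3%, against 15.8% of all tested genes) and 1 was lower. Those higher included the pocket protein RBL2 (0.44 ± 0.10) and the E2F partner TFDP1 (0.32 ± 0.08, call lost in 3 of 19 settings). WEE1 was not called (-0.27 ± 0.10, edgeR adjusted p = 0.0573). Of 16 outer kinetochore genes 4 were lower and 1 higher, and of 21 other spindle factors 7 were lower. Of the 24 MCM and licensing genes 16 were lower, with a median of -0.59, and of 15 tubulin genes 5 were lower and 4 higher. Beside these counts, 17.0% of all tested genes were called lower and 15.8% higher. The differences between these lists, and between each list and all tested genes, were not tested.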

How the data were processed

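Messenger RNA of 6 Kasumi-1 libraries was analysed. The authors deposited whole-number counts per Ensembl gene and, separately, RPKM values. GRCh38 is the build in the submitters' processing notes, which list edgeR, featureCounts, HISAT2 and cutadapt 1.18. How strand and multiply aligned reads were treated, and which annotation was counted, is not given in the sources used here. All 191796 deposited RPKM values were recomputed from counts, lengths and TMM-scaled totals within a relative tolerance of 1e-06, so both tables hold the same measurement. The replicates differed by more than sampling noise. Of the count columns, 0 were left unused.

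Counts were filtered with filterByExpr (minimum count 10, minimum total 15), which left 18486 of 31966 genes, scaled by TMM and compared by group with the quasi-likelihood test of edgeR 4.0.16 in R 4.3.3, calling genes at a Benjamini-Hochberg adjusted p of at most 0.05. SE values come from the F statistic. The test was tried on simulated data. Alternatives were other scalings, filters and dispersions, DESeq2 1.42.0, limma 3.58.1 (voom, or trend on log2(RPKM + 1) and log2(RPKM + 0.1), which understates changes of low genes), a replicate block and leaving out each library. A GC correction was added with earlier results known.

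The members and lists were chosen with earlier results of these data known. Values in every library are given for the 2 members of each of 13 role groups with the largest called change (or the smallest p), for CCNB1, CDK1, PLK1, AURKA, AURKB, TOP2A, MKI67, FOXM1 and MYBL2, and log2 fold changes for all members. Of the further mitotic genes, up to 4 in each direction with the largest called change at a mean of at least 1 CPM and WEE1 are named. Overlaps and GC content came from GENCODE release 29 on GRCh38, and the genes overlapping or resembling a member are named for that reason.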

Additional observations from a re-analysis of the deposited data

How the results depend on the processing

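The alternatives comprised 19 other fits. The count of all tested genes called lower, 3140, ranged from 1835 to 3644 when a library was left out. It was 1987 with the replicate block and 3931 after the GC correction. For the 60 mitotic genes the count called lower, 24, ranged from 17 to 34 when a library was left out and from 18 (replicate block) to 28 in the other fits, and the count called higher, 2, was 2 in all of the first and 4 after the GC correction. Of the 26 called members 17 kept their call in every fit that tested them. For the 113 further genes the count called lower, 20, ranged from 12 (without FBL knockdown replicate 3) to 32 (without Control replicate 2), and the count called higher, 9, from 3 (without Control replicate 3; 5 without FBL knockdown replicate 2) to 11, with 16 after the GC correction. The labels do not say whether the replicate numbers pair the samples. Deviations of same-numbered libraries from their group means correlated at -0.27, -0.19 and 0.04. These values cannot settle it, because libraries within a group also differ in GC lean. With a replicate block the lower and higher counts were 18 and 2 for the mitotic genes and 13 and 3 for the further genes. The log2 fold change of TOP2A, not called, was 0.023 under upper-quartile scaling and 0.0054 with the stricter filter, and ranged from -0.17 (without Control replicate 2) to 0.086 (without Control replicate 1) when a library was left out, with 0.08 without FBL knockdown replicate 1. Of 624 values of the named genes in other fits, 587 kept their direction and side of the threshold, 30 lost a call, 3 gained one and 4 changed sign. Leaving out a library moved the difference in the log2 ratio of CDC20 to MAD2L1, 0.15, to between 0.0096 (without Control replicate 1) and 0.27, that of TPX2 to AURKA to between -0.57 and -0.38 and that of CCNB1 to CDK1 to between -0.47 and -0.36. The rarest member, SMC3, had 37 reads in its poorest library. Its log2 fold change of -0.52 had an SE of 0.31, so small changes in genes measured this loosely could go uncalled.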
